A study of Mus musculus with 10 samples.

Results

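Genes that respond to the ERK pathway were followed through RNA-seq libraries of mouse embryonic stem cells (mESCs) with and without the histone deacetylase complex MiDAC. The 10 genes are 8 feedback genes and ERK targets, *Spry1*, *Spry2*, *Spry4*, *Spred1*, *Dusp4*, *Dusp6*, *Etv4* and *Etv5*, and 2 immediate early genes, *Egr1* and *Fos*. They were taken by their symbols from the 34591 genes of the deposited table, and all 10 are present. They had been chosen by their own measured levels in these libraries, since clones of the same knockout differed in them, with D1E6 and E2G7 set against D2A7 and E2E8. The levels along that split are therefore given below as a description without a test.

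The parental line is Bruce-4, a male C57/BL6 mESC line. Clones D2A7 and D1E6 carry a CRISPR/Cas9 knockout (KO) of *Dnttip1*, and clones E2E8 and E2G7 one of *Elmsan1*, both of which encode scaffold subunits of MiDAC. Each clone was grown from a single sorted cell, so each is 1 editing event. WT cells and each clone are represented by 2 libraries, 10 in all. All cells, WT included, grew in medium with LIF (1000 U/ml), the GSK3 inhibitor CHIR99021 (3 µM) and the MEK inhibitor PD0325901 (1 µM). The paper calls the replicates biological, but no label says that the 2 libraries of a line came from separate cultures. The p-values measure the spread between these libraries, part of which may be technical, and, where clones are pooled, also the spread between clones.

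In the ERK pathway, receptor tyrosine kinases such as the FGF receptors activate RAS, RAF, MEK and ERK in turn, and ERK then switches on genes that damp the pathway. Sprouty and Spred proteins act on the steps upstream of ERK, and the DUSP phosphatases remove phosphate from ERK itself. In mESCs, FGF4 made by the cells drives this pathway and favours the exit from pluripotency, and inhibition of MEK helps to hold the cells in a naive state. Every library here was made with MEK inhibited.

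Libraries held from 31098275 to 86463776 fragments, as recovered from the FPKM values. The 2 WT libraries were the shallowest, at 31098275 and 37921213 fragments, and every clone library held at least 48262663. *Dnttip1* stood at 8.45 and 8.35 FPKM in WT, 4.57 and 4.55 in D2A7, 2.58 and 2.60 in D1E6, and from 6.43 to 7.77 in the *Elmsan1* KO libraries. *Elmsan1*, listed under *C130039O16Rik*, stood at 5.73 and 5.34 FPKM in WT, from 4.62 to 5.13 in its own knockout and from 7.78 to 8.67 in the *Dnttip1* KO libraries. Each targeted gene was thus lowest in its own knockout and still had reads there. The 13 pluripotent cell markers summed to between 3213 and 4206 FPKM in every library. *Dppa5a* alone gave 1552 to 2294 FPKM of this sum, which hides shifts of single genes. *Sox2*, *Nanog*, *Klf4* and *Esrrb* were below both WT libraries in every KO library, and *Dppa5a*, *Zfp42*, *Fbxo15* and *Utf1* were above. *Nanog* stood at 325 and 324 FPKM in WT and between 241 and 291 in the KO libraries. The 9 fibroblast markers summed to at most 0.892 FPKM, and 7 of them averaged under 0.1 FPKM. The 2 WT libraries differed from each other with a mean chi-square per gene of 55.6, against 5.08 to 6.02 within the clones, but with a median of 1.005, which lay between those of the clones.

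*Dusp6* and *Fos* had the widest clone differences in the 2 opposite directions along the split among the members with a promoter sequence in the RefSeq table used here (GRCm38.p6), and their promoters are shown. The table held promoters of 6 of the 10 genes, 7 sequences in all, each from 250 bases before to 50 bases after a start site. Capitals mark matches, on either strand, to an ETS core (CGGAAG, the kind of site bound by ETV4 and ETV5) or a CRE core (TGACGT, bound by CREB).
Dusp6 promoter, chr10:99262981-99263280, + strand: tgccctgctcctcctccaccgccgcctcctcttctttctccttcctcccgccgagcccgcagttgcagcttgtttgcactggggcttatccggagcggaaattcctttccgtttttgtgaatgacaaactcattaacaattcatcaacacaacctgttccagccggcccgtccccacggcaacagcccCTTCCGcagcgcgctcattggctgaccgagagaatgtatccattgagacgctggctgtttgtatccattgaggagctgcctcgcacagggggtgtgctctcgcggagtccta
Fos promoter, chr12:85473640-85473939, + strand: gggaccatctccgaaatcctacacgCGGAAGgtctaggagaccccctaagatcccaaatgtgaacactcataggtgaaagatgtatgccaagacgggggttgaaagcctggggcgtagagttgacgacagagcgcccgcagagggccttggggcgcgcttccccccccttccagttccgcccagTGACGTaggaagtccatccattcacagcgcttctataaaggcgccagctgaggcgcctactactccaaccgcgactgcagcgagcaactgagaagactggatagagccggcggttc

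The ETS core was found in the promoters of 3 of those 6 genes. It begins at position -62 from the start of *Dusp6*, at -225 in *Fos*, and at -17 and 8 in *Spred1*. Of 32851 promoters of the same length, 16.9% held this motif. The CRE core, in 7.51% of promoters, was found in *Fos* alone among the 6 genes, at -66. Neither the AP-1 site (TGANTCA, in 7.81% of promoters) nor the CArG box (in 1.63%) was found in these windows, and the motifs found do not overlap. The promoters of *Spry1*, *Spry2* and *Etv5* held no match to the 4 motifs. These matches are letters in a window and were not tested as sites.

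The clones differed most in *Spry4* and *Etv4*. *Spry4*, which encodes a Sprouty protein that restrains signalling from receptor tyrosine kinases to ERK, is a gene of the - strand of chromosome 18 (38745922 to 38760922 in NCBIM37, the build to which the reads were aligned). Its normalized level was 0.443 and 0.393 FPKM in WT, 0.638 and 0.635 in D2A7, 4.06 and 4.12 in D1E6, 0.501 and 0.454 in E2E8, and 1.86 and 1.97 in E2G7. D1E6 and E2G7 stood above all other libraries, at 9.78 and 4.58 times the WT mean, whereas D2A7 was at 1.52 and E2E8 at 1.14 times. No neighbouring lines overlapped in the order WT, E2E8, D2A7, E2G7 and D1E6. Between 61 and 1194 fragments lay behind each value.

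*Etv4*, an ETS transcription factor of the PEA3 group whose transcription follows FGF and ERK signalling, lies on chromosome 11 (101631056 to 101646685, - strand). It stood at 0.515 and 0.648 FPKM in WT, 0.684 and 0.816 in D2A7, 4.27 and 4.75 in D1E6, 0.655 and 0.799 in E2E8, and 2.04 and 2.30 in E2G7. The lines fell in the same order as for *Spry4*, with D2A7 and E2E8 overlapping. Relative to WT, the mean was 7.76 times as high in D1E6 and 3.73 times in E2G7, compared with 1.29 times in D2A7 and 1.25 times in E2E8. *Etv4* rested on 48 to 932 fragments per library.

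*Dusp6* (chromosome 10, 98725865 to 98730122, + strand), a phosphatase that inactivates ERK in the cytoplasm, followed the same order at the top. Its level was 5.29 and 4.55 FPKM in WT, 4.15 and 4.46 in D2A7, 11.3 and 10.7 in D1E6, 4.72 and 4.89 in E2E8, and 7.80 and 7.82 in E2G7. D1E6 stood at 2.23 and E2G7 at 1.59 times the WT mean. WT overlapped E2E8, and D2A7 lay below both. *Spred1* (chromosome 2, 116947110 to 117008015, + strand), which inhibits RAS by recruiting neurofibromin, spanned a narrower range, with 5.74 and 5.77 FPKM in WT, 5.07 and 4.82 in D2A7, 7.51 and 7.77 in D1E6, 5.73 and 5.52 in E2E8, and 6.39 and 6.53 in E2G7. Here too D1E6 and E2G7 were the highest lines, at 1.33 and 1.12 times WT, and D2A7 the lowest, at 0.859 times.

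*Etv5* (chromosome 16, 22381382 to 22439792, - strand), the close relative of *Etv4*, was the most abundant of the 10 genes per length and moved least. It stood at 84.5 and 80.6 FPKM in WT, 62.4 and 64.8 in D2A7, 76.5 and 76.6 in D1E6, 79.6 and 78.6 in E2E8, and 86.5 and 83.1 in E2G7. D2A7 was the lowest line, at 0.770 times WT, and WT and E2G7 overlapped at the top. Within each knockout *Etv5* was higher in the same clone as *Etv4*, but by only 1.20 times in D1E6 over D2A7 and 1.07 times in E2G7 over E2E8. For *Etv4* these ratios were 6.02 and 2.99.

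**Figure D1:**
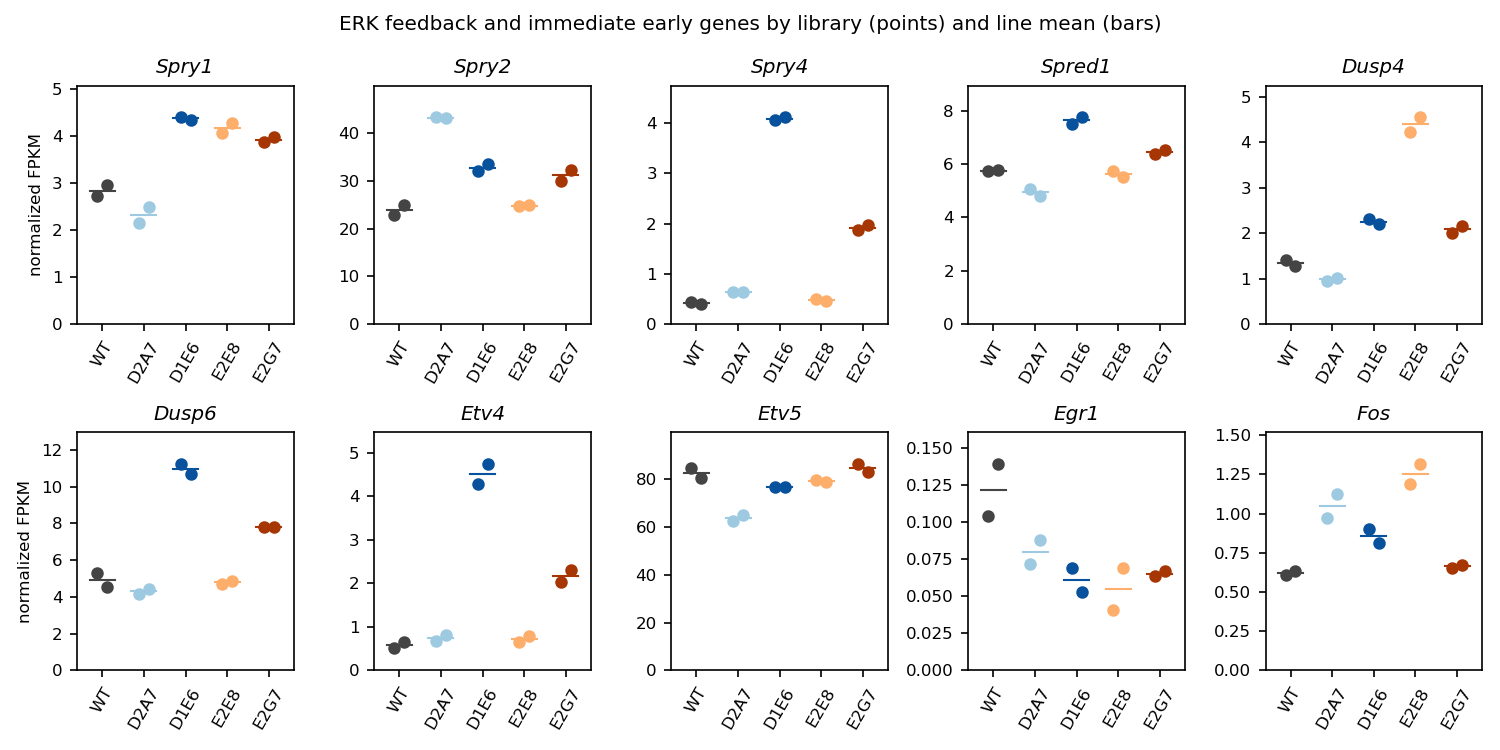
Normalized FPKM (y axis, from 0) of the 10 genes in each of the 10 libraries (points) with the mean of each line (short bars), for WT, *Dnttip1* KO (D2A7, D1E6) and *Elmsan1* KO (E2E8, E2G7). *Spry4*, *Etv4*, *Dusp6* and *Spred1* are highest in D1E6 and next highest in E2G7, with *Spry4* near 4.09 FPKM in D1E6 and 0.418 FPKM in WT, whereas *Dusp4* and *Fos* are highest in E2E8 and *Spry2* in D2A7.

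The other Sprouty genes did not share this order. *Spry1* (chromosome 3, 37538869 to 37543520, + strand) stood at 2.72 and 2.95 FPKM in WT, 2.14 and 2.49 in D2A7, 4.40 and 4.34 in D1E6, 4.07 and 4.27 in E2E8, and 3.87 and 3.98 in E2G7. The other clones, D1E6, E2E8 and E2G7, lay at 1.54, 1.47 and 1.38 times WT, and D2A7 lay below WT, at 0.817 times. *Spry2* (chromosome 14, 106291166 to 106296036, - strand), the most abundant of these Sprouty genes, stood at 22.9 and 25.0 FPKM in WT, 43.4 and 43.1 in D2A7, 32.0 and 33.5 in D1E6, 24.8 and 24.9 in E2E8, and 30.0 and 32.4 in E2G7. D2A7, the lowest line for *Spry1*, was the highest for *Spry2*, at 1.81 times WT. WT and E2E8 overlapped, as did E2G7 and D1E6.

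*Dusp4*, a nuclear phosphatase of ERK, was highest in E2E8. It stood at 1.41 and 1.28 FPKM in WT, 0.957 and 1.01 in D2A7, 2.30 and 2.20 in D1E6, 4.24 and 4.56 in E2E8, and 2.01 and 2.16 in E2G7. E2E8 reached 3.27 times WT, D1E6 1.67 times and E2G7 1.55 times, and D2A7 lay at 0.733 times, with no overlap between neighbouring lines. *Dusp4* lies on chromosome 8 (35870351 to 35882948, + strand), where the median of 667 expressed genes was above WT by 0.367 in D2A7, 0.358 in D1E6, 0.370 in E2E8 and 0.353 in E2G7 on the log2 scale. Its part in the *Dusp4* levels above was not tested. The comparisons of knockouts below give *Dusp4* both as it is and with chromosome medians removed. On the chromosomes of the other 9 genes, the medians of the clones lay within 0.1 of WT.

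*Fos* (chromosome 12, 86814840 to 86818223, + strand), which encodes a subunit of the AP-1 factor and is induced within minutes of ERK activation, was low throughout and showed the opposite clone order. It stood at 0.609 and 0.633 FPKM in WT, 0.971 and 1.13 in D2A7, 0.903 and 0.814 in D1E6, 1.19 and 1.32 in E2E8, and 0.655 and 0.674 in E2G7. E2E8 and D2A7 were the highest, at 2.02 and 1.69 times WT, and every KO library exceeded both WT libraries. *Egr1* (chromosome 18, 35020861 to 35024638, + strand), a zinc finger factor induced in the same way, was near the limit of detection, with 0.104 and 0.140 FPKM in WT, 0.0717 and 0.0879 in D2A7, 0.0690 and 0.0530 in D1E6, 0.0410 and 0.0692 in E2E8, and 0.0637 and 0.0670 in E2G7. These values rest on 10 to 18 fragments per library. The WT libraries were the highest, D1E6 lay below D2A7 without overlap, and E2E8 and E2G7 overlapped. With so few fragments, *Egr1* was not compared between the clones beyond these values. A gene on the opposite strand, *Gm17507*, overlaps *Egr1* and is listed at 0 in every library. The sources used here do not state the strand setting of the counting, so reads of these overlapping genes may not have been told apart.

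**Figure D2:**
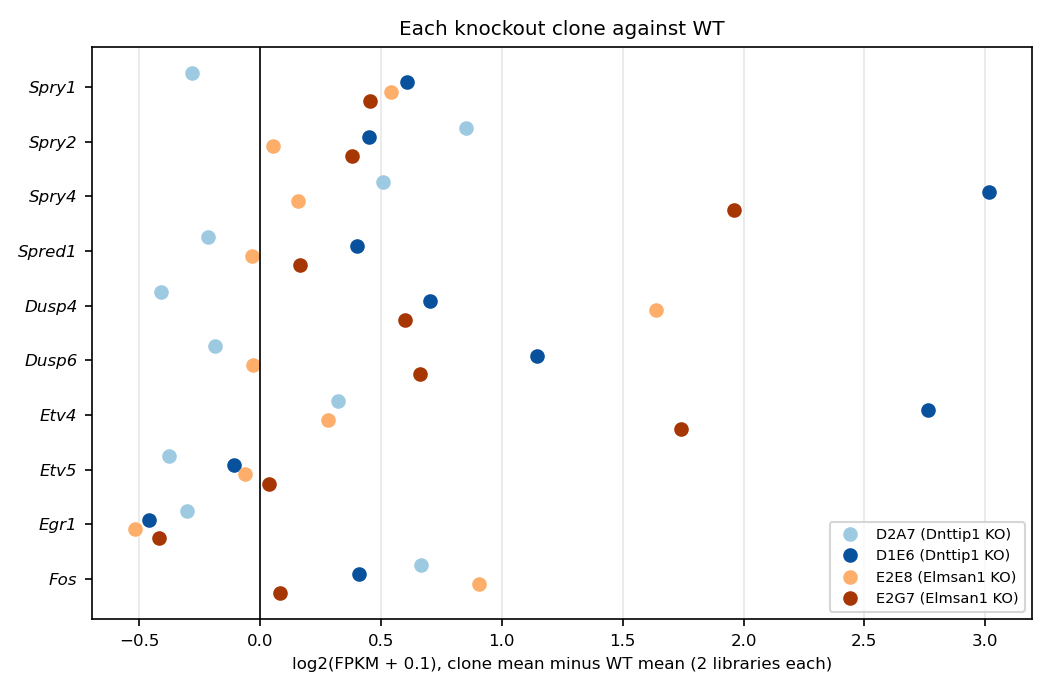
Difference between each KO clone and WT for the 10 genes, as clone mean minus WT mean of log2(FPKM + 0.1) from 2 libraries each (x axis). The largest differences are those of *Spry4* (3.02) and *Etv4* (2.76) in D1E6, with both genes also high in E2G7 (1.96 and 1.74) and close to WT in E2E8 (0.16 and 0.28).

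Over the 40 pairs of a gene and a clone, 13 means of log2(FPKM + 0.1) lay at least 1.5-fold above WT and 0 lay as far below. Over 17870 genes with at least 0.1 FPKM in 2 or more libraries, 11.0% of such pairs lay above and 8.24% below by this margin. The genes were chosen with these levels known, so nothing is read from their count. D1E6 accounted for 5 of them (*Spry1*, *Spry4*, *Dusp4*, *Dusp6* and *Etv4*), E2G7 for 4 (*Spry4*, *Dusp4*, *Dusp6* and *Etv4*), D2A7 for *Spry2* and *Fos*, and E2E8 for *Dusp4* and *Fos*. The count depends on the pseudocount, the small value added before taking logarithms: it was 7 above with a pseudocount of 1, and 14 above and 3 below with 0.01.

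Both libraries of D1E6 exceeded both of D2A7, and both of E2G7 exceeded both of E2E8, for 5 of the 9 genes with at least 0.1 FPKM in 2 or more KO libraries, namely *Spry4*, *Spred1*, *Dusp6*, *Etv4* and *Etv5*. Only *Fos* was lower in both pairs, and *Egr1* was left out. Of all 17600 genes that passed the same filter, 11.8% were higher and 18.2% lower in both pairs. In a fit with knockout as a term, 0.801% of all genes were at least 1.5-fold higher and 4.45% at least 1.5-fold lower at p under 0.01. For *Spry1*, *Spred1*, *Dusp4* and *Dusp6*, 4 of the 10 genes, D1E6 lay above WT and D2A7 below WT in every library, as did 5.78% of all genes, and *Spred1* did the same in E2G7 and E2E8, as did 5.84%. Since the genes were chosen along this split, nothing is read from these counts.

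**Figure D3:**
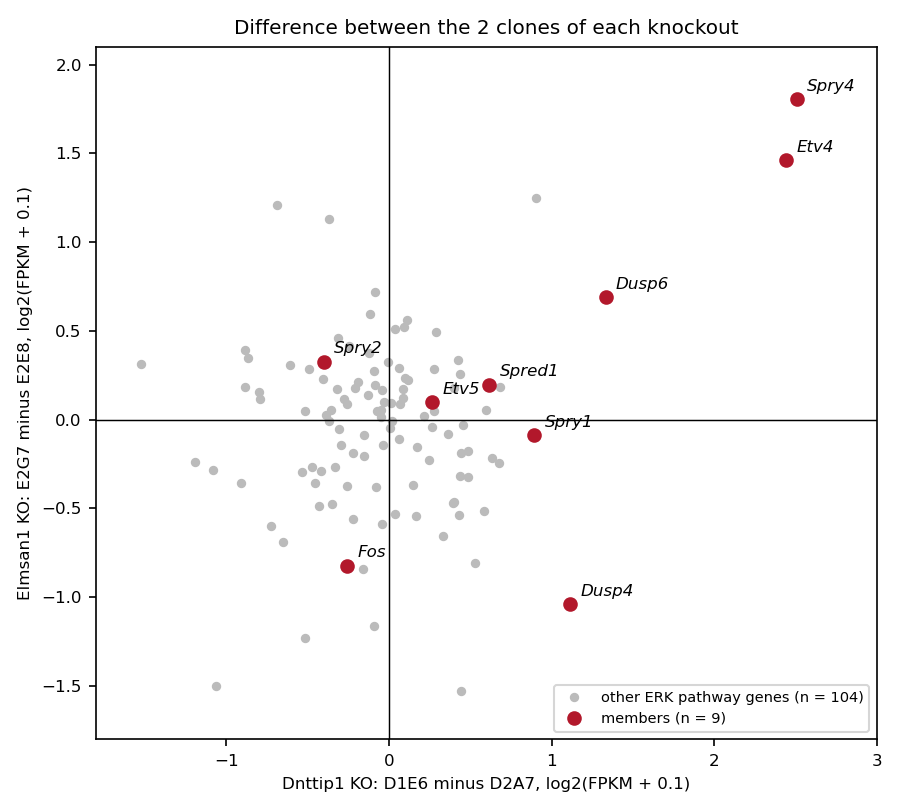
Difference in log2(FPKM + 0.1) between the clones of each knockout, D1E6 minus D2A7 (x axis) against E2G7 minus E2E8 (y axis), for 9 of the 10 genes (red, named) and 104 other genes of the ERK pathway (grey), each from 2 libraries per clone. *Spry4* (2.51 and 1.80) and *Etv4* (2.44 and 1.46) lie farthest to the upper right, and *Dusp4* (1.11 and -1.04) lies on opposite sides of 0 in the 2 knockouts.

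As given above, 11.8% of all genes were higher and 18.2% lower in both pairs. Among the other genes of the pathway, 14 of 104 were higher in both pairs and 24 lower. *Il17rd*, which encodes the feedback inhibitor SEF, was among the former, with 10.7 and 11.1 FPKM in D2A7, 13.3 and 13.3 in D1E6, 9.73 and 9.91 in E2E8, and 13.7 and 14.0 in E2G7. *Myc* was as well, with 0.852 and 1.07 FPKM in D2A7, 1.91 and 1.85 in D1E6, 0.618 and 0.636 in E2E8, and 1.66 and 1.60 in E2G7. *Jun*, the partner of *Fos* in AP-1, was among the latter, with 4.49 and 4.90 FPKM in D2A7, 3.42 and 3.49 in D1E6, 4.68 and 5.34 in E2E8, and 3.36 and 3.72 in E2G7. These 3 genes were picked after their values were seen. Of 16 other feedback inhibitors with enough signal, 2 were higher in both pairs (*Il17rd* and *Rasa2*) and 3 lower (*Dusp1*, *Dusp8* and *Rasa3*).

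To ask whether loss of a MiDAC subunit changed these genes whatever the clone, the 4 libraries of each knockout were compared with the 2 WT libraries. The test was limma's moderated test on log2(FPKM + 0.1). The genes had been chosen because clones of the same knockout differed in them. Such differences widen the error here and in the later test between the knockouts. The absence of a call therefore does not show that a gene was unchanged. A gene was called where it changed by 1.5-fold or more with an unadjusted p under 0.01, and adjusted p-values are Benjamini-Hochberg values over all genes tested. In *Dnttip1* KO cells, 3.26% of 17435 genes were called higher and 3.24% lower. Of the 10 genes, only *Spry2* was called. Its mean was 38.0 ± 6.09 FPKM (SD, n = 4) in *Dnttip1* KO and 23.9 ± 1.49 (n = 2) in WT, a log2 fold change of 0.65 (SE 0.149, limma adjusted p = 0.0486), and it was higher in 4 of 4 libraries. The fit takes the 2 libraries of a clone as independent, whereas their estimated correlation was 0.704 in this comparison, 0.768 in *Elmsan1* KO against WT and 0.856 between the knockouts. With that correlation in the fit, genes with an adjusted p under 0.05 went from 904 higher and 747 lower to 27 and 30, and *Spry2* was still called at limma adjusted p = 0.170. Over the alternatives its adjusted p ranged from 0.0307 to 0.278. The call was lost without WT replicate 1 (log2 fold change 0.59), without WT replicate 2 (0.72) and without D2A7 replicate 1 (0.58).

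*Spry4* and *Etv4* had larger mean differences than *Spry2* in *Dnttip1* KO cells and were not called, and their clones lay far apart. *Spry4* averaged 2.36 ± 1.99 FPKM (SD, n = 4) against 0.418 ± 0.0355 (n = 2) in WT, with a log2 fold change of 1.76 (SE 0.883, limma adjusted p = 0.257). For *Etv4* the log2 fold change was 1.54 (SE 0.864, limma adjusted p = 0.305). *Fos* came closer, at 0.54 (SE 0.158, unadjusted p = 0.0140, limma adjusted p = 0.0896), and was called once chromosome medians were removed, at 0.59. *Dusp6* (0.48), *Spry1* (0.16), *Dusp4* (0.15), *Spred1* (0.09) and *Etv5* (-0.24) did not pass. With chromosome medians removed, *Dusp4* changed sign to -0.22. *Egr1* (-0.38) entered the test only through its WT libraries. All 4 KO libraries lay above both WT libraries for *Spry2*, *Spry4*, *Etv4* and *Fos*, and below for *Etv5*. Of all genes, 21.1% lay above and 20.7% below in this way. *Egr1* also lay below, but nothing is read from this because it passed the filter only through WT.

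In *Elmsan1* KO cells, 2.74% of 17205 genes were called higher and 3.68% lower, and 0 of the 10 genes were called by limma or by voom on recovered fragments. Unadjusted p was under 0.05 for 2 of them. *Spry1* averaged 4.04 ± 0.171 FPKM (SD, n = 4) against 2.83 ± 0.163 (n = 2) in WT. Its log2 fold change of 0.50 (SE 0.0871, limma adjusted p = 0.0201) fell short of 1.5-fold, and its adjusted p ranged from 0.0144 to 0.271 over the alternatives. *Dusp4* averaged 3.24 ± 1.34 FPKM against 1.34 ± 0.0943, with a log2 fold change of 1.12 (SE 0.371, limma adjusted p = 0.110), which was 0.76 once chromosome medians were removed. Without E2G7 replicate 1, *Dusp4* was called, at 1.31.

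*Spry4* (log2 fold change 1.06, SE 0.634, limma adjusted p = 0.329) and *Etv4* (1.01, SE 0.524, limma adjusted p = 0.265) again had wide errors in *Elmsan1* KO cells. *Fos* (0.50), *Dusp6* (0.32), *Spry2* (0.22), *Spred1* (0.07) and *Etv5* (-0.01) did not pass, nor did *Egr1* (-0.47), which entered only through WT. Every *Elmsan1* KO library lay above both WT libraries for *Spry1*, *Spry4*, *Dusp4*, *Etv4* and *Fos*. Only *Egr1* lay below, from which nothing is read for the same reason. Among all genes, 21.3% lay above and 21.8% below. Both knockouts were compared with the same 2 WT libraries.

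**Figure D4:**
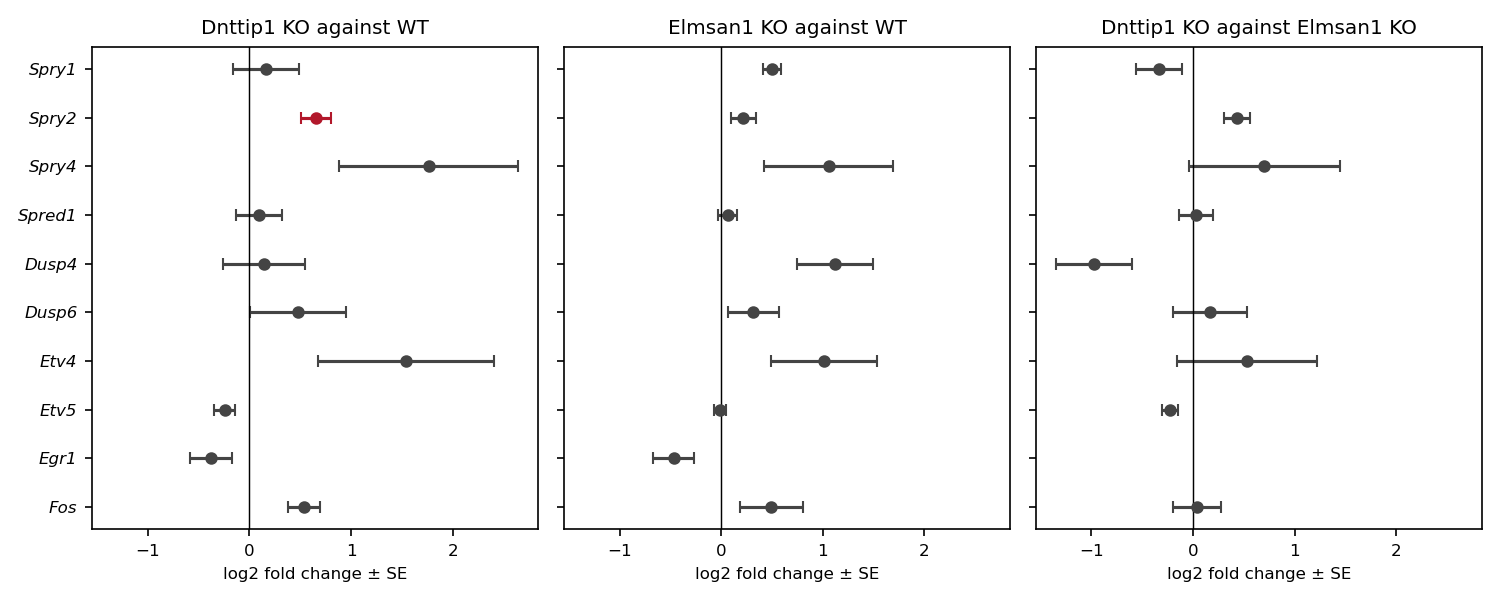
Log2 fold change with its standard error (limma) of the 10 genes in the 3 comparisons of *Dnttip1* KO with WT, *Elmsan1* KO with WT and *Dnttip1* KO with *Elmsan1* KO. The only called value, *Spry2* in *Dnttip1* KO against WT (0.65), is in red, and *Egr1* is missing on the right because it did not pass the filter there.

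The knockouts were then compared with each other, 4 libraries against 4, which tests whether the effect of losing one subunit differed from that of losing the other. Of 17600 genes, 1.11% were called higher and 0.415% lower in *Dnttip1* KO, or 195 and 73 genes, against 146 and 142 under quantile normalization. None of the 9 genes tested was called by limma or by voom, and 3 had an unadjusted p under 0.05. These were *Spry2* (log2 fold change 0.43, SE 0.131, limma adjusted p = 0.296), *Dusp4* (-0.97, SE 0.375, limma adjusted p = 0.299) and *Etv5* (-0.23, SE 0.0788, limma adjusted p = 0.296). *Dusp4* stood at -0.98 with chromosome medians removed. *Etv5* was the only one of the 3 whose knockouts did not overlap, with all 4 *Dnttip1* KO libraries below all 4 *Elmsan1* KO libraries, as in 4.05% of all genes (5.43% lay above). For *Spry4* the difference was 0.70 (SE 0.747, limma adjusted p = 0.633) and for *Etv4* 0.53 (SE 0.691, limma adjusted p = 0.701).

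The rest of the pathway was surveyed through lists of 116 other genes, 104 of which were tested. The lists were chosen with earlier results of these data known. In *Dnttip1* KO cells 8 of these genes were called higher and 8 lower, beside 3.26% and 3.24% of all genes. Their median log2 fold change was 0.04 against 0.02 over all genes. In *Elmsan1* KO cells 5 were called higher and 6 lower, beside 2.74% and 3.68% of all genes, with medians of 0.05 and 0.00. Between the knockouts 3 were higher and 0 lower in *Dnttip1* KO by limma, beside 1.11% and 0.415% of all genes. Of the pathway genes, 19 had an unadjusted p under 0.05 there and 3 were called by voom. The same shares of all genes apply to the single lists below. The adjusted p-values of these genes below take the libraries of a clone as independent. With the estimated correlation within clones, 0 of the called genes given below with an adjusted p had one under 0.05, the values running from 0.0556 to 0.341 in *Dnttip1* KO and from 0.0624 to 0.519 in *Elmsan1* KO and standing at 1.00 between the knockouts. Calls at unadjusted p remained for 11 of 15, 6 of 11 and 1 of 3 of them. Lost in that fit were *Fgf17*, *Dusp5*, *Junb* and *Etv1* in *Dnttip1* KO, *Fgf15*, *Fgfr2*, *Junb*, *Jund* and *Elk3* in *Elmsan1* KO, and *Ctgf* and *Etv1* between the knockouts.

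Of 15 ligands and receptors tested, 3 fell in both knockouts, which share the WT libraries. *Fgf15*, an FGF ligand, fell by 1.41 on the log2 scale in *Dnttip1* KO (limma adjusted p = 0.00846) and fell by 1.54 in *Elmsan1* KO (0.0178). *Fgfr2*, an FGF receptor, fell by 1.30 (limma adjusted p = 0.00838) and fell by 1.02 (0.0472). *Fgf17*, another ligand, fell by 1.11 (limma adjusted p = 0.0582) and fell by 0.82 (0.0123). *Fgfr2* stood at 1.04 and 0.948 FPKM in WT and between 0.323 and 0.579 in the KO libraries. *Erbb3*, a receptor of the EGF receptor family, rose in *Elmsan1* KO by 0.75 (limma adjusted p = 0.00598). *Fgf4*, the main ligand of these cells, was not called and stood at 117 FPKM in both WT libraries and between 74.9 and 131 FPKM in the clones.

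Of 28 components of the cascade itself, from RAS proteins to the RSK kinases, only *Rps6ka2*, which encodes an RSK kinase, was called, with a log2 fold change of -0.87 in *Dnttip1* KO (limma adjusted p = 0.0559). In *Elmsan1* KO 0 were called by limma or voom, and 10 had an unadjusted p under 0.05. The summed level of the 28 genes stayed between 443 and 474 FPKM in the 10 libraries.

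Of 16 other feedback inhibitors tested, 3 were called higher and 2 lower in *Dnttip1* KO. The phosphatase genes *Dusp14* (log2 fold change 1.05, limma adjusted p = 0.0522), *Dusp1* (0.66, 0.0230) and *Dusp5* (0.61, 0.0271) rose. The receptor inhibitor *Lrig1* fell, at -0.70 (limma adjusted p = 0.0501), and *Errfi1*, named to complete the count, was the other to fall. In *Elmsan1* KO 0 of the 16 were called by limma or voom, with 7 at an unadjusted p under 0.05 and a list median of 0.32, close to the 0.31 of *Dnttip1* KO. Between the knockouts 0 of 16 were called by either tool, with 4 at an unadjusted p under 0.05.

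Among 26 other immediate early genes, 3 rose and 0 fell in each knockout, with list medians of 0.27 and 0.25. *Junb*, a partner of FOS in AP-1, rose in both, by 0.65 in *Dnttip1* KO (limma adjusted p = 0.0204) and by 0.68 in *Elmsan1* KO (0.0122). *Cyr61*, which encodes a secreted matrix protein, rose in *Dnttip1* KO by 1.14 (limma adjusted p = 0.0620), as did the nuclear receptor gene *Nr4a1* by 0.61 (0.0270). *Btg2*, an antiproliferative gene, rose in *Elmsan1* KO by 0.76 (limma adjusted p = 0.0564) and *Jund* by 0.63 (0.0682). *Cyr61* (0.86) and *Ctgf* (0.81) were higher in *Dnttip1* KO than in *Elmsan1* KO, both at limma adjusted p = 0.296. *Cyr61* and *Ctgf* were highest in D2A7, at 5.56 and 5.50 FPKM for *Cyr61* against 1.84 in both WT libraries.

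Of 16 other ETS factors, *Ets2* fell in both knockouts, with a log2 fold change of -0.80 in *Dnttip1* KO (limma adjusted p = 0.0137) and -1.10 in *Elmsan1* KO (0.0101). *Etv1*, the third gene of the PEA3 group beside *Etv4* and *Etv5*, rose in *Dnttip1* KO by 0.73 (limma adjusted p = 0.0234) and was higher there than in *Elmsan1* KO by 0.80 (0.296). It stood at 0.628 and 0.705 FPKM in WT, 1.19 and 1.23 in D2A7, 1.07 and 1.19 in D1E6, 0.439 and 0.499 in E2E8, and 0.804 and 0.872 in E2G7. Unlike *Etv4*, it did not separate D1E6 from D2A7, whose libraries overlapped. Like *Etv4*, it was higher in E2G7 than in E2E8 without overlap, by 1.79 times. *Elk3* fell in *Elmsan1* KO, at -0.61 (limma adjusted p = 0.0585). Among further output genes of ERK, the cyclin gene *Ccnd1* fell in both knockouts, at -0.76 (limma adjusted p = 0.0385) and -0.67 (0.0127), and *Epha4* rose in both, by 0.93 (0.0101) and 0.63 (0.0626).

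The genes whose level over the 10 libraries was most like the mean profile of the 10 genes (the mean of their standardized log2 levels) were *Ston2* (Pearson r = 0.991), *Gm6169* (0.986), *Brpf1* (0.984), *Kcnab3* (0.981) and *Slc25a26* (0.980), among 12207 genes that averaged 1 FPKM or more. *Ston2* averaged 1.20 FPKM in WT, 1.00 in D2A7, 2.46 in D1E6, 1.497 in E2E8 and 1.84 in E2G7. The least alike were *Ppm1b* (-0.977), *Eif3c* (-0.976), *Sccpdh* (-0.975), *Ptgr1* (-0.972) and *Endod1* (-0.970). The 10 points are 5 lines with 2 libraries each and are not independent. The 10 genes did not share a common profile. Pearson r between members ran from -0.806 (*Spry2* and *Etv5*) to 0.988 (*Spry4* and *Etv4*), so likeness to the mean is not likeness to each gene. *Brpf1* and *Slc25a26* lie on chromosome 6, whose median was above WT by 0.401 in D1E6, 0.376 in E2E8 and 0.276 in E2G7 and differed by -0.08 in D2A7.

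Markers of other cell states varied between the clones as well. The 5 primed epiblast markers in the table summed to 23.0 and 21.9 FPKM in WT, 27.2 and 26.2 in D2A7, 14.1 and 14.3 in D1E6, 4.88 and 5.17 in E2E8, and 16.94 and 16.99 in E2G7. Most of these sums came from *Otx2* and *Dnmt3b*, which moved differently. *Otx2* averaged 11.1 FPKM in WT, 11.0 in D2A7, 2.90 in D1E6, 0.752 in E2E8 and 2.97 in E2G7. *Dnmt3b* averaged 10.7 FPKM in WT, 15.3 in D2A7, 10.8 in D1E6, 3.74 in E2E8 and 13.6 in E2G7. Neither the highest nor the lowest of these sums fell in D1E6 or E2G7. The 9 primitive endoderm markers summed to between 4.98 and 11.98 FPKM, lowest in E2E8 and highest in D2A7. Most of this was *Lamb1* and *Col4a1*, at means of 7.74 and 2.59 FPKM in D2A7, and 3 of the 9 averaged under 0.1 FPKM. Other markers were mixed in D2A7, with *Gata4* at 1.87 and *Sox7* at 0.279 times WT. The 6 mesendoderm markers summed to between 4.95 and 7.07 FPKM. The 6 neural markers summed to between 94.0 and 96.5 FPKM in D1E6 and E2G7, 83.7 and 86.4 in D2A7, 64.6 and 58.1 in WT, and 50.2 and 52.4 in E2E8. Most of this was *Tubb3*, at means of 85.4 FPKM in D1E6, 87.1 in E2G7 and 56.7 in WT, and 3 of the 6 averaged under 0.1 FPKM. *Nes* and *Sox1* were instead highest in D2A7, at means of 12.7 and 0.833 FPKM. *Sox1* averaged 0.295 FPKM in both D1E6 and E2G7, against 0.421 in WT. The 9 heat shock genes summed to between 2359 and 3224 FPKM. The part of these differences in the levels of the ERK genes was not tested. In such bulk libraries, fewer cells that express a gene and less RNA per cell cannot be told apart.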

How the data were processed

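RNA-seq of mESCs was analysed from the table of FPKM values deposited by the authors, with 34591 genes and 10 libraries. Per the methods and labels, the authors made stranded total RNA libraries, aligned paired reads to NCBIM37 and counted them with HTSeq. The submitters' processing notes also list limma and R 3.3.1. Gene positions were taken from GENCODE vM1, which held 97.2% of the genes. From 98.1% to 98.4% of low values were whole multiples of 1 fragment per gene length (tolerance 0.02), which gave the fragments behind each value. Each library was divided by its median ratio to the geometric mean over 11270 genes that reached 1 FPKM everywhere (factors 0.965 to 1.013).

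Two-sided tests on log2(FPKM + 0.1) covered genes that reached 0.1 deposited FPKM in 2 or more of the libraries compared, and used limma 3.58.1 (R 4.3.3), a variance trend and Benjamini-Hochberg adjustment. The fold change is on the log2(FPKM + 0.1) scale and understates the change of low genes. The call rule (1.5-fold, p under 0.01) is that of the study for its differentially expressed genes. For its set of neurodevelopmental genes the study used p under 0.05. The fit was also run on simulated data with independent libraries and no differences between clones. That run therefore cannot speak to the correlation of libraries within a clone. Tables and figures used Python 3.11.15, numpy 2.4.6, pandas 2.3.3 and matplotlib 3.10.9. The members and lists were chosen with earlier results of these data known. Named are the 10 members, in each other pathway list up to 4 called genes per comparison with the largest change, and the 5 genes most and least like the members' profile, beside a few said to be picked later. Alternatives were other pseudocounts (1 and 0.01), filters and normalizations, centred chromosomes, a fit without variance trend, joint fitting of all libraries, correlated libraries of a clone, a replicate block, an adjusted p threshold, voom and each library left out. Applying the filter to deposited rather than normalized FPKM was decided after results under both were seen.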

Additional observations from a re-analysis of the deposited data

Results flagged for a closer look

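In all, 4 of the 10 genes lay above WT in every library of a clone and below WT in every library of the other clone of the same knockout. These differences were not tested, and the genes had been picked along this split. Of all genes, 5.78% showed this between D1E6 and D2A7 and 5.84% between E2G7 and E2E8, with D1E6 or E2G7 above WT. *Spry1* was above WT in D1E6 and below it in D2A7, which differed by 0.89 on the log2 scale. *Dusp4* differed between the same clones by 1.11, *Dusp6* by 1.33 and *Spred1* by 0.62, all with D1E6 above and D2A7 below WT. *Spred1* also separated the *Elmsan1* KO clones, with E2G7 above and E2E8 below WT, by 0.20.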

How the results depend on the processing

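The number of the 10 genes called did not change under most alternatives. In *Dnttip1* KO against WT, where *Spry2* was called, 2 were called with chromosomes centred (*Fos*, at 0.59, joined it), and between 0 and 1 with a library left out. In *Elmsan1* KO against WT none was called except 1 (*Dusp4*) with a library left out, a range of 0 to 1. Between the knockouts the count was 0 throughout. The pairs of a gene and a clone at least 1.5-fold above WT numbered 7 with a pseudocount of 1 and from 12 to 13 with a library left out. Those as far below numbered 3 with a pseudocount of 0.01, 1 with chromosomes centred, 1 with quantile normalization, and 0 to 1 with a library left out. The genes higher in both clone pairs numbered 6 with quantile normalization and 5 under the other alternatives.

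Small differences changed sign. *Dusp4* in *Dnttip1* KO against WT was at -0.22 with chromosomes centred and from -0.051 to 0.344 with a library left out. *Spred1* there ranged from -0.018 to 0.208 with a library left out. *Etv5* in *Elmsan1* KO against WT was at 0.012 as deposited, at 0.027 with chromosomes centred and from -0.045 to 0.022 with a library left out. Between the knockouts, *Fos* was at -0.031 with quantile normalization and from -0.10 to 0.20 with a library left out, *Spred1* ranged from -0.083 to 0.142 and *Dusp6* from -0.070 to 0.403.

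Counts over all genes moved more. In *Dnttip1* KO, 569 higher and 565 lower became 251 and 289 with a pseudocount of 1, 375 and 289 at a mean of at least 1 FPKM, 283 and 255 with the libraries of a clone correlated, and from 354 to 573 and 245 to 504 with a library left out. In *Elmsan1* KO, 472 and 633 became 227 and 298, 327 and 276, 233 and 253, and 322 to 589 and 300 to 573, and voom called 307 and 629. Between the knockouts, 195 and 73 became 60 and 19, 75 and 37, 37 and 17, and 70 to 404 and 24 to 148, with 146 and 142 under quantile normalization and 3 and 1 at an adjusted p under 0.05. The cause of these changes was not tested. The filter on normalized FPKM, an alternative added after seeing the data, changed no call of the 10 genes.

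A replicate block was fitted although no label ties same-numbered libraries. Only 1 of 10 pairs of lines had a correlation of deviations above 0.1 (range -0.139 to 0.192). With the replicate block, 126 genes were higher and 45 lower between the knockouts, and *Spry2* in *Dnttip1* KO kept its log2 fold change of 0.65 at limma adjusted p = 0.106. Leaving out a WT library leaves 1, which is then assumed to vary like the KO libraries. Depth limits *Egr1*, with at most 18 fragments per library.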
